A study of Mus musculus with 36 samples.

Results

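Myosin light chains and myosin binding proteins were followed as 10 genes among the 51912 gene IDs of the count tables. They are Myl1, Myl2, Myl3, Myl4, Mylpf, Myl6b, Mybpc1, Mybpc2, Mybph and Mylk2, and each symbol matched 1 Ensembl ID that is a row of both tables. RNA-seq had been done on whole tibialis anterior (TA), a fast hindlimb muscle, and whole soleus, which is rich in slow fibers. The 4 groups were the TA and the soleus of WT mice and the TA and the soleus of ∆Ig3-MuSK mice, with 9 libraries each, named here by a replicate number in each group. All animals were male C57BL/6 mice aged 3 months. The homozygous ∆Ig3-MuSK mice carry a constitutive deletion, made with CRISPR-Cas9, of the exons for the third immunoglobulin-like domain of MuSK, the muscle-specific kinase that also acts as a co-receptor for BMPs. The study asked how losing this domain alters the transcripts of a fast and a slow muscle.

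Total counts lay between 43492062 and 78660422 per library, and the 10 genes took 1.17% to 1.57% of them. The 5 skeletal muscle markers (Ckm, Acta1, Mb, Des, Ttn) summed to 38467 to 43899 CPM in WT TA and 40882 to 50822 CPM in ∆Ig3-MuSK soleus, where CPM is the depth-scaled count with TMM factors over the 36 libraries. Counts of Musk itself sum over all exons, so reads from the deleted exons are missing from its ∆Ig3-MuSK total. A loss of those reads and a change in expression cannot be told apart in these sums. Musk was at 4.25 ± 0.947 CPM (SD over 9 libraries) in WT TA and 3.08 ± 0.391 CPM (SD over 9 libraries) in ∆Ig3-MuSK TA, a log2 fold change of −0.46 (adjusted p = 0.135). In the soleus it was at 15.2 ± 1.82 CPM (SD over 9 libraries) in WT and 11.3 ± 3.29 CPM (SD over 9 libraries) in ∆Ig3-MuSK, a log2 fold change of −0.44 (adjusted p = 0.0978). Some libraries stood apart. WT soleus replicates 1 and 2 held 6111 and 4084 CPM of Myh4, the heavy chain of the fastest fibers, against 149.9 to 1359 CPM in the other 7, and ∆Ig3-MuSK soleus replicates 1 and 3 were the highest of their group at 4905 and 3968 CPM. In bulk muscle, fewer cells of a type and less RNA per cell cannot be told apart.

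Each myosin head region carries a pair of light chains, an essential and a regulatory one, which stiffen the lever arm of the heavy chain. Fast fibers mainly use the products of Myl1 and Mylpf, whereas slow fibers and the heart ventricle use those of Myl3 and Myl2. Myosin binding protein C lies along the thick filament in slow-type and fast-type forms and tunes how readily heads reach actin, and skeletal muscle light chain kinase, activated by calcium and calmodulin, phosphorylates the regulatory light chain during contraction.

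Coordinates are on GRCm38, the assembly that mm10 names, from the GENCODE M21 annotation. The regulatory light chains are Mylpf (ENSMUSG00000030672, chr7:127208890-127214298, plus strand), the fast form, and Myl2 (ENSMUSG00000013936, chr5:122100951-122113472, plus strand), the slow form. The essential light chains are Myl1 (ENSMUSG00000061816, chr1:66924295-66945404, minus strand), the fast form, Myl3 (ENSMUSG00000059741, chr9:110741861-110769798, plus strand), the slow form, Myl4 (ENSMUSG00000061086, chr11:104550663-104595753, plus strand), the atrial and embryonic form, and Myl6b (ENSMUSG00000039824, chr10:128494157-128498685, minus strand), a form known from slow muscle and non-muscle cells. The binding proteins are Mybpc1 (ENSMUSG00000020061, chr10:88518279-88605152, minus strand), slow-type myosin binding protein C, Mybpc2 (ENSMUSG00000038670, chr7:44501699-44524656, minus strand), the fast type, and Mybph (ENSMUSG00000042451, chr1:134193448-134201232, plus strand), the shorter myosin binding protein H. The kinase is Mylk2 (ENSMUSG00000027470, chr2:152911352-152923068, plus strand). The libraries carry no strand information, so reads in exons shared with a gene on the opposite strand could belong to either. Mybph shares 1162 bp of its 2329 bp of exon with Adora1, an adenosine receptor gene. The other shared stretches are 252 bp between Mybpc1 and Gm48752, 192 bp between Mybpc2 and Gm44646, 95 bp between Myl3 and Pth1r, 60 bp between Myl2 and Ccdc63 and 3 bp between Myl4 and Gm22000.

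The sequence before the transcription start is shown for Myl1, Mylpf, Mybpc2 and Mybph, which were lower in soleus than in TA libraries, and for Myl3, which was higher. Each line gives the 250 bases before the RefSeq start on GRCm38.p6, 5′ to 3′ on the gene's own strand, with matches to the searched motifs in capitals. The windows are chr1:66945057-66945306 for Myl1, chr7:127211358-127211607 for Mylpf, chr7:44524670-44524919 for Mybpc2, chr1:134193198-134193447 for Mybph and chr9:110763428-110763677 for Myl3.
Myl1: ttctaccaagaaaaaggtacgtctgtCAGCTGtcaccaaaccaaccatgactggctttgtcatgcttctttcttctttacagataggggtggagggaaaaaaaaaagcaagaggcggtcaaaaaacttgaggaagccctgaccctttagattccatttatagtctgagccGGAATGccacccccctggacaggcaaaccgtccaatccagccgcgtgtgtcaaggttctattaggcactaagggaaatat
Mylpf: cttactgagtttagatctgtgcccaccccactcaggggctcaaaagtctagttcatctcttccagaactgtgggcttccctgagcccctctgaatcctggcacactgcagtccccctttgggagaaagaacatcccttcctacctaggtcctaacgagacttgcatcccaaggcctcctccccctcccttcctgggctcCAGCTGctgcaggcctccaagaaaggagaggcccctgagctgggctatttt
Mybpc2: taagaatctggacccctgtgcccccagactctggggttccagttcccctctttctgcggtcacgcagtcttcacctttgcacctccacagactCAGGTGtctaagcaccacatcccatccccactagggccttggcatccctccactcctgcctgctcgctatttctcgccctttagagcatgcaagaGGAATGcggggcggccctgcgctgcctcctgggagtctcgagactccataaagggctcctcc
Mybph: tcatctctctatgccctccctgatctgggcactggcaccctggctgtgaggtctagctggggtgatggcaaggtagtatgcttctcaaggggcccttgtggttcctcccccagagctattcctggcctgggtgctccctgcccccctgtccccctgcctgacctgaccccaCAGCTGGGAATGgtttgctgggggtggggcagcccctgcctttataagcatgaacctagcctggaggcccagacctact
Myl3: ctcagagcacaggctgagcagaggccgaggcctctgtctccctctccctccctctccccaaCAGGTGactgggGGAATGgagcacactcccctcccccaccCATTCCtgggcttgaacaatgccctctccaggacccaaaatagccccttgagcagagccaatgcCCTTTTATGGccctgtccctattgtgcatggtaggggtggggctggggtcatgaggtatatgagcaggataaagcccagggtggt
The motifs, read on both strands, were the E-box CANNTG bound by myogenic factors, the MCAT element CATTCC bound by TEAD factors, the MEF2 site and the CArG box of serum response factor. In Mybph an E-box and an MCAT element stand side by side, starting 79 and 73 bases before the start. Myl3 holds 2 MCAT elements, 177 and 149 bases before the start, and a CArG box at 85. RefSeq windows were found for 9 of the 10 genes. An E-box was in 8 of the 9, against 66.2% of all 32851 windows, and an MCAT element in 4 of the 9 (Myl1, Myl3, Mybpc2 and Mybph), against 12.6%. A MEF2 site was in 0 of the 9 (2.92% of all windows) and a CArG box in 1 (1.47%). These matches are a description of the letters and not of binding.

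Levels of the genes were set side by side per length, as mean CPM per kb of exon over 9 libraries. In WT TA the fast regulatory chain Mylpf led at 5645 ± 840.0 (SD), followed by Myl1 at 1720.5 ± 274, Mybpc2 at 731 ± 95.4, Mylk2 at 340.0 ± 33.0 and Mybpc1 at 276 ± 21.6 CPM per kb. Myl3 came next at 28.0 ± 6.37 and Mybph at 6.63 ± 4.08 CPM per kb, while Myl6b, Myl4 and Myl2, at 2.69, 2.27 and 1.90, did not differ beyond their spread. The order in ∆Ig3-MuSK TA was Mylpf (5117), Myl1 (1534), Mybpc2 (849), Mylk2 (379), Mybpc1 (263), Myl3 (27.0) and Mybph (7.37 CPM per kb), again with Myl6b, Myl2 and Myl4 lowest. In WT soleus, Myl3 was at 1610.3 ± 65.1, Mylpf at 1219.7 ± 332, Myl2 at 1049 ± 119 and Mybpc1 at 726 ± 43.8 CPM per kb, and the levels of Mylpf and Myl2 overlapped within their SDs. Myl1 followed at 422 ± 78.8, then Mybpc2 and Mylk2, which could not be ordered at 68.8 ± 60.5 and 62.5 ± 18.7, then Myl6b at 23.2 ± 7.27, with Myl4 and Mybph at 1.53 and 1.04 CPM per kb. The ∆Ig3-MuSK soleus had Myl3 at 1704 ± 157, Mylpf at 1483 ± 233, Myl2 at 1007 ± 109, Mybpc1 at 754 ± 62.4 and Myl1 at 457 ± 69.7 CPM per kb. With the longest transcript in place of all exons, 174 of the 180 pairwise orders of genes within groups held.

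**Figure D1:**
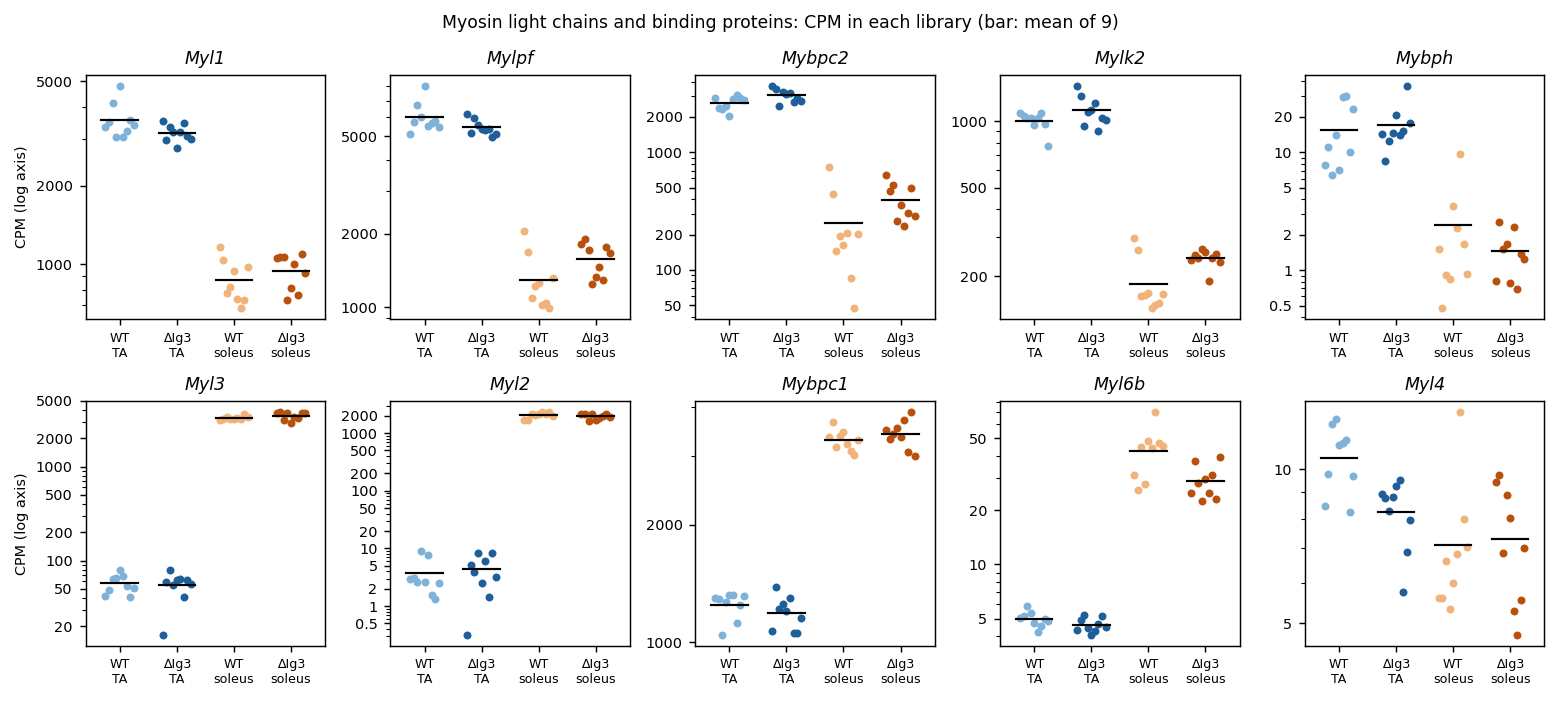
CPM of each of the 10 genes (log axis) in the 9 libraries of the 4 groups, with a bar at each group mean. For Myl2 the TA libraries lie between 0.321 and 8.94 CPM and the soleus libraries between 1606 and 2319 CPM, whereas for Myl4 the muscles overlap.

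The muscles were compared within each genotype. In WT, Myl2, Myl3, Myl6b and Mybpc1 were higher in the soleus, by 550.4-, 57.6-, 8.60- and 2.63-fold, and Myl1, Mylpf, Myl4, Mybpc2, Mybph and Mylk2 were lower, by 4.08-, 4.63-, 1.48-, 10.6-, 6.21- and 5.44-fold. All 10 were thus called (adjusted p under 0.05 and at least 1.2-fold in edgeR's quasi-likelihood test), where 57.5% of the 20841 genes tested were called (30.2% higher and 27.3% lower). All 10 also had an unadjusted p under 0.05, as 69.6% of all genes did. In ∆Ig3-MuSK the same 4 genes were called higher and 5 of the 6 were called lower, Myl4 being the exception, where 56.1% of all genes were called (28.5% higher and 27.6% lower), and 9 had an unadjusted p under 0.05, as 68.8% of all genes did. At a limit of 2-fold, 9 of 10 were called in each genotype, against 15.5% of all genes in WT and 15.4% in ∆Ig3-MuSK. Of these 9, 4 were higher and 5 lower, where 9.12% and 6.42% of all genes were in WT and 8.66% and 6.77% in ∆Ig3-MuSK. The median size of the log2 difference over the 10 genes was 2.54 in WT, beside 0.38 over all genes tested. Each muscle has a count table of its own, and the files give no technical batch within a muscle, so muscle and any difference in handling between the tables cannot be told apart.

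**Figure D2:**
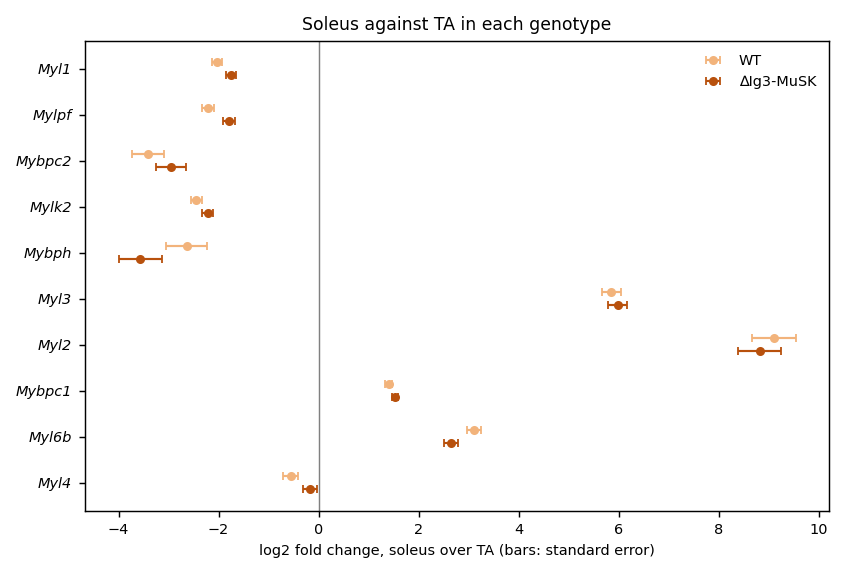
Log2 fold change of each gene between soleus and TA in WT and in ∆Ig3-MuSK, with bars for the standard error of the fit. Values run from 9.10 for Myl2 in WT to −3.57 for Mybph in ∆Ig3-MuSK, and only Myl4 lies near 0.

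Among the regulatory light chains, Myl2 ranged from 1.30 to 8.94 CPM (median 2.64) in WT TA and from 1657 to 2319 CPM (median 2101) in WT soleus. The ranges lay far apart, and the log2 difference was 9.10 with a standard error of 0.43 (adjusted p = 2.15e-20). In ∆Ig3-MuSK, Myl2 was between 0.321 and 8.42 CPM (median 3.82) in the TA and between 1606 and 2166 CPM (median 1983) in the soleus, a log2 difference of 8.82 with a standard error of 0.43 (adjusted p = 4.32e-20). The TA value of 0.321 CPM belonged to ∆Ig3-MuSK TA replicate 1, which also held the lowest Myl3 of the TA and the highest Myh4, at 32867 CPM. Mylpf was between 5088 and 8059 CPM (median 5698) in WT TA and between 989.8 and 2043 CPM (median 1223) in WT soleus, and every soleus library lay below every TA library. The log2 difference of Mylpf was −2.21 with a standard error of 0.12 (adjusted p = 7.25e-19) in WT and −1.79 with a standard error of 0.12 (adjusted p = 2.88e-16) in ∆Ig3-MuSK, where the levels were between 4967 and 6154 CPM (median 5338) in the TA and between 1242 and 1897 CPM (median 1666) in the soleus.

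Myl3, the slow essential chain, was between 41.4 and 79.5 CPM (median 54.2) in WT TA and between 3163 and 3602 CPM (median 3242) in WT soleus, a log2 difference of 5.85 with a standard error of 0.19 (adjusted p = 1.53e-25). It was between 16.3 and 80.2 CPM (median 59.3) in ∆Ig3-MuSK TA and between 2921 and 3818 CPM (median 3677) in ∆Ig3-MuSK soleus, a log2 difference of 5.98 with a standard error of 0.19 (adjusted p = 1.06e-25). Neither pair of ranges overlapped. Its fast counterpart Myl1 was between 3059.9 and 4813 CPM (median 3408) in WT TA, between 2787 and 3519.9 CPM (median 3203) in ∆Ig3-MuSK TA, between 681 and 1165 CPM (median 823) in WT soleus and between 729 and 1098 CPM (median 1004) in ∆Ig3-MuSK soleus. The log2 difference of Myl1 was −2.03 with a standard error of 0.10 (adjusted p = 1.59e-19) in WT and −1.75 with a standard error of 0.10 (adjusted p = 1.15e-17) in ∆Ig3-MuSK, again without overlap of the muscles.

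Myl6b was a minor transcript, between 4.23 and 5.85 CPM (median 4.99) in WT TA and between 25.9 and 70.0 CPM (median 44.8) in WT soleus, with a log2 difference of 3.10 with a standard error of 0.14 (adjusted p = 3.41e-21). In ∆Ig3-MuSK it was between 4.08 and 5.26 CPM (median 4.51) in the TA and between 22.5 and 39.4 CPM (median 28.2) in the soleus, with a log2 difference of 2.65 with a standard error of 0.14 (adjusted p = 3.11e-19). Both pairs of ranges were apart. Myl4 was low in every group, between 8.23 and 12.5 CPM (median 11.1) in WT TA and between 5.34 and 12.9 CPM (median 6.60) in WT soleus. Those ranges overlapped because WT soleus replicate 7, at 12.9 CPM, was above all TA libraries, and the log2 difference was −0.56 with a standard error of 0.14 (adjusted p = 0.000749). For ∆Ig3-MuSK the Myl4 levels were between 5.74 and 9.50 CPM (median 8.78) in the TA and between 4.75 and 9.76 CPM (median 7.02) in the soleus, and the difference of −0.18 with a standard error of 0.14 (adjusted p = 0.281) did not pass, with a 95% interval from −0.46 to 0.10.

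Of the binding proteins, Mybpc1 was abundant in both muscles, between 1048 and 1324 CPM (median 1289.6) in WT TA and between 3013 and 3662 CPM (median 3289.8) in WT soleus. Its log2 difference was 1.40 with a standard error of 0.063 (adjusted p = 4.61e-21) in WT and 1.52 with a standard error of 0.063 (adjusted p = 3.93e-22) in ∆Ig3-MuSK, where levels were between 1055 and 1389 CPM (median 1205) in the TA and between 2988 and 3878 CPM (median 3415) in the soleus. Soleus libraries were above TA libraries without exception in both genotypes. Mybpc2 went the other way, between 2027 and 3052 CPM (median 2805) in WT TA and between 47.2 and 751 CPM (median 194) in WT soleus, with a log2 difference of −3.41 with a standard error of 0.31 (adjusted p = 4.32e-12). The difference in WT was −4.15 when the 2 soleus libraries of each genotype with the most Myh4 were left out. In ∆Ig3-MuSK, Mybpc2 was between 2488 and 3689 CPM (median 3163) in the TA and between 234 and 635 CPM (median 354) in the soleus, with a log2 difference of −2.95 with a standard error of 0.31 (adjusted p = 1.13e-10).

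Mybph was low, between 6.37 and 29.8 CPM (median 11.0) in WT TA, between 8.46 and 36.8 CPM (median 14.5) in ∆Ig3-MuSK TA, between 0.475 and 9.76 CPM (median 1.51) in WT soleus and between 0.692 and 2.55 CPM (median 1.38) in ∆Ig3-MuSK soleus. The muscles overlapped in WT, through WT soleus replicate 7 at 9.76 CPM, and not in ∆Ig3-MuSK. The log2 difference was −2.63 with a standard error of 0.41 (adjusted p = 5.40e-07) in WT, −3.35 without that library, and −3.57 with a standard error of 0.43 (adjusted p = 3.89e-09) in ∆Ig3-MuSK. Adora1, which shares exon with Mybph, had medians of 5.18, 6.49, 1.76 and 1.72 CPM in the 4 groups in the same order. Mylk2, the kinase that acts on the regulatory chains, was between 773 and 1091 CPM (median 1029) in WT TA and between 143 and 297 CPM (median 164) in WT soleus. All soleus libraries were below all TA libraries, and the log2 difference was −2.44 with a standard error of 0.12 (adjusted p = 3.15e-20). In ∆Ig3-MuSK it was −2.22 with a standard error of 0.12 (adjusted p = 5.00e-19), from 907 to 1445 CPM (median 1097) in the TA and 189.5 to 265 CPM (median 241) in the soleus. Over all 10 genes, the ranges of the muscles did not overlap for 8 in WT, where 28.3% of all genes had ranges apart, and for 9 in ∆Ig3-MuSK, where 29.4% did.

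The slow form was then expressed as a share of its slow and fast pair, from CPM per kb. For the regulatory chains, Myl2 made up 0.0123% to 0.0809% (median 0.0251%) of Myl2 and Mylpf in WT TA and 0.00284% to 0.0897% (median 0.0350%) in ∆Ig3-MuSK TA. In the soleus its share was 31.3% to 56.1% (median 48.3%) in WT and 33.9% to 48.6% (median 39.9%) in ∆Ig3-MuSK. These shares depend on the exon lengths: with the longest transcript the mean share of Myl2 was 58.0% in WT and 51.9% in ∆Ig3-MuSK soleus, against 47.0% and 40.6% with all exons. For the essential chains, Myl3 made up 1.17% to 2.23% (median 1.53%) of Myl3 and Myl1 in WT TA, 0.468% to 2.38% (median 1.97%) in ∆Ig3-MuSK TA, 73.4% to 83.3% (median 80.0%) in WT soleus and 74.7% to 83.7% (median 78.3%) in ∆Ig3-MuSK soleus. Within the soleus the slow share was therefore higher for the essential than for the regulatory pair in every library, with either length. Mybpc1 made up 22.7% to 34.3% (median 27.0%) of Mybpc1 and Mybpc2 in WT TA and 18.8% to 28.1% (median 23.8%) in ∆Ig3-MuSK TA, against 78.1% to 98.1% (median 93.3%) in WT soleus and 81.4% to 92.7% (median 88.3%) in ∆Ig3-MuSK soleus. The 2 lowest slow shares of WT soleus belonged to replicates 1 and 2 for all 3 pairs. The summed regulatory chains stood at 2.94 to 3.75 times the summed essential chains per kb in WT TA and at 1.00 to 1.33 times in WT soleus, which depends on the exon lengths used. Shares were not tested, because they rest on lengths and on single pairs of genes.

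**Figure D3:**
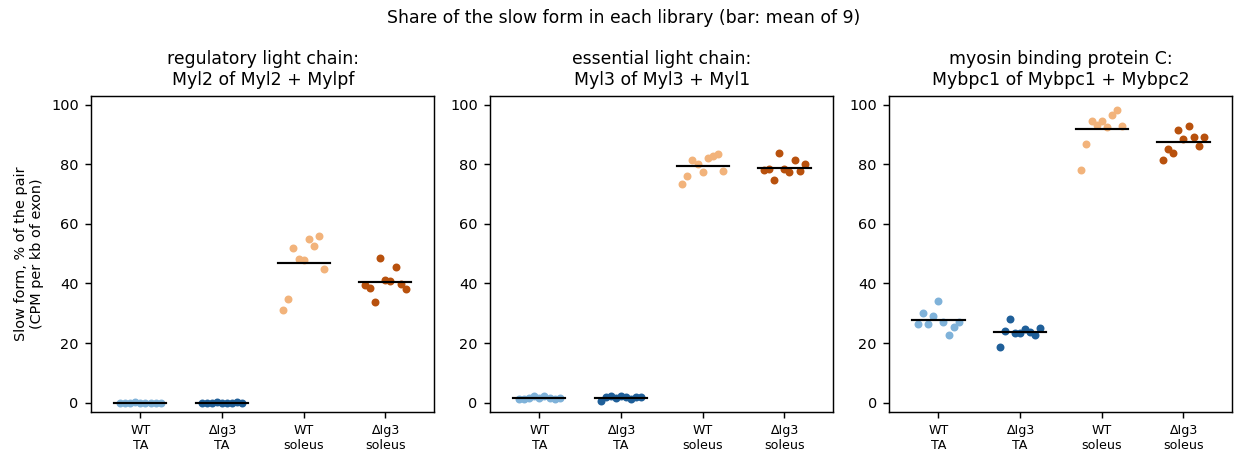
Share of the slow form in each slow and fast pair (% of summed CPM per kb of exon) in the 9 libraries of the 4 groups, with a bar at each mean. In the soleus the share of Myl2 lies between 31.3% and 56.1%, that of Myl3 between 73.4% and 83.7%.

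The genotypes were compared within the TA. Of the 10 genes, 0 were called by edgeR's quasi-likelihood test, where 0.0149% of the 20075 genes tested were called (3 genes). At an unadjusted p under 0.05 there were 2, Myl4 and Mybpc2, where 24.1% of all genes reached it. DESeq2 called 1 of the 10, where it called 1.12% of all genes, Myl4 (log2 fold change −0.35, adjusted p = 0.0454), and 225 of all genes, and limma-voom called 0 of the 10 and 150 of all genes. Myl4 was at 10.5 ± 1.55 CPM (SD over 9 libraries) in WT and 8.24 ± 1.22 CPM (SD over 9 libraries) in ∆Ig3-MuSK, and all 9 ∆Ig3-MuSK libraries were below the WT mean though the ranges overlapped. Its log2 fold change was −0.35 with a standard error of 0.098 (adjusted p = 0.144). Mybpc2 was at 2638 ± 344 CPM (SD over 9 libraries) in WT and 3065 ± 391 CPM (SD over 9 libraries) in ∆Ig3-MuSK, with 8 of 9 ∆Ig3-MuSK libraries above the WT mean and a log2 fold change of 0.22 with a standard error of 0.089 (adjusted p = 0.171). It was 0.074 with the level of Myh4 as a covariate, and Myh4 itself was at 19202 ± 4385 CPM (SD over 9 libraries) in WT and 22775 ± 4716 CPM (SD over 9 libraries) in ∆Ig3-MuSK. Other genes moved with that covariate too, Myl1 from −0.16 to −0.085, Mylpf from −0.14 to −0.076 and Myl6b from −0.10 to −0.049. Mylk2 went from 0.16 to 0.075, whereas Myl4 went from −0.35 to −0.37.

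The fast chains Myl1 and Mylpf had log2 fold changes of −0.16 (adjusted p = 0.217) and −0.14 (adjusted p = 0.266) in the TA, with 9 and 8 of 9 ∆Ig3-MuSK libraries below the WT mean. Among the slow forms, Myl2 was at 0.23, with a 95% interval from −0.63 to 1.09, and Myl3 at −0.050, with an interval from −0.44 to 0.34. Mybph was at 0.15 with an interval from −0.45 to 0.76. Intervals were narrower for Mybpc1, from −0.20 to 0.059, for Myl6b, from −0.24 to 0.028, and for Mylk2, from −0.012 to 0.33. The ranges of WT and ∆Ig3-MuSK TA overlapped for all 10 genes, and over all genes tested they were apart for 0.0299%.

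In the soleus, 0 of the 10 genes were called by edgeR's quasi-likelihood test, where 0.952% of the 19439 genes tested were called (185 genes). An unadjusted p under 0.05 was reached by 3 of them, Myl6b, Mylk2 and Mylpf, where 18.5% of all genes reached it. DESeq2 called 0 of the 10 and 486 of all genes. Limma-voom with sample quality weights called 2 of the 10, where it called 3.36% of all genes, Myl6b (−0.55, adjusted p = 0.0395) and Mylk2 (0.46, adjusted p = 0.0175). Myl6b was between 25.9 and 70.0 CPM (median 44.8) in WT and between 22.5 and 39.4 CPM (median 28.2) in ∆Ig3-MuSK, and all 9 ∆Ig3-MuSK libraries were below the WT mean of 42.8 CPM. Its log2 fold change was −0.57 with a standard error of 0.16 (adjusted p = 0.0823). Mylk2 was between 143 and 297 CPM (median 164) in WT and between 189.5 and 265 CPM (median 241) in ∆Ig3-MuSK, where 9 of 9 libraries were above the WT mean, with a log2 fold change of 0.37 with a standard error of 0.12 (adjusted p = 0.119). Mylpf, at 1295 ± 352 CPM (SD over 9 libraries) in WT and 1575 ± 248 CPM (SD over 9 libraries) in ∆Ig3-MuSK, had a log2 fold change of 0.27 with a standard error of 0.13 (adjusted p = 0.259), and Mybpc2, at 248 ± 219 CPM (SD over 9 libraries) and 396 ± 140.0 CPM (SD over 9 libraries), one of 0.67 with a standard error of 0.38 (adjusted p = 0.357). The ranges overlapped for all 10 genes, and over all genes tested they were apart for 0.0772%.

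These counts depended on WT soleus replicates 1 and 2. They held 751 and 443 CPM of Mybpc2, against 47.2 to 205 CPM in the other 7 WT libraries, and 297 and 261 CPM of Mylk2, against 143 to 168 CPM. Without replicate 1, the log2 fold change was 0.48 (adjusted p = 0.0148) for Mylk2, 0.38 (adjusted p = 0.0462) for Mylpf and −0.62 (adjusted p = 0.0385) for Myl6b, and these 3 were called, with 602 of all genes. Without replicate 2, Mylk2 (0.44, adjusted p = 0.0428) and Myl6b (−0.64, adjusted p = 0.0326) were called, with 416 of all genes. Leaving out the 2 libraries of each genotype with the most Myh4, a choice made after the values were seen, gave 4 calls among the 10 genes, where 3.52% of all genes were called (686 genes, against 185 with all libraries). The 4 were Mybpc2 at 1.19 (adjusted p = 0.0200), Mylk2 at 0.59 (adjusted p = 0.000755), Mylpf at 0.40 (adjusted p = 0.0236) and Myl6b at −0.68 (adjusted p = 0.0308). In the 7 libraries left per genotype, Mybpc2 lay between 47.2 and 205 CPM in WT and between 234 and 502 CPM in ∆Ig3-MuSK, and Mylk2 between 143 and 168 CPM in WT and between 189.5 and 265 CPM in ∆Ig3-MuSK. For these 2 of the 10 genes the ranges were apart, as they were for 1.64% of all genes tested in the same libraries. Myh4 in those libraries lay between 149.9 and 1359 CPM in WT and between 252 and 3192 CPM in ∆Ig3-MuSK. The choice thus did not match the genotypes in Myh4, and the part of Myh4 in these calls was not tested. A fit to all 18 libraries then took the level of Myh4 as a covariate. It gave 0.37 for Mybpc2, 0.23 for Mylk2, 0.14 for Mylpf and −0.35 for Myl6b. In that fit 0 of the 10 genes and 1 of all genes tested were called, against 185 of all genes without the covariate. Myh4 itself was at 1677 ± 2068 CPM (SD over 9 libraries) in WT soleus and 2492 ± 1430 CPM (SD over 9 libraries) in ∆Ig3-MuSK soleus. The covariate thus also takes up any genotype effect that goes with Myh4, and the 2 cannot be told apart in that fit. Over all genes, calls ranged from 22 to 602 when single libraries were left out, the highest without WT soleus replicate 1 and the lowest without replicate 5, and leaving out WT soleus replicate 3, 4, 5, 6, 8 or 9 gave 22 to 89.

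Mybph was between 0.475 and 9.76 CPM (median 1.51) in WT soleus and between 0.692 and 2.55 CPM (median 1.38) in ∆Ig3-MuSK soleus, with a log2 fold change of −0.79 with a standard error of 0.47 (adjusted p = 0.384). WT soleus replicate 7 held 9.76 CPM of it, and the value was −0.080 without that library. The same library was the highest of WT soleus in Myl4, at 12.9 CPM, and in Myl6b, at 70.0 CPM. It was also the highest in all 4 macrophage markers, with Cd68 at 7.79 CPM against 1.63 to 2.71 in the other 8, in 5 of 5 fibroblast markers, such as Col3a1 at 684 CPM against 159 to 293, and in 3 of the 5 markers of regenerating or denervated fibers. Those were Myh3 at 59.1 CPM against 38.3 to 49.9, Myog at 6.31 CPM against 2.91 to 5.24 and Chrng at 0.774 CPM against 0.0763 to 0.411. The rest of that list did not stand out in replicate 7, with Myh8 at 204.4 CPM against 203.5 to 368.6 and Ncam1 at 18.3 CPM against 9.48 to 20.2. Myl4 was at 0.019 between genotypes, with a 95% interval from −0.32 to 0.36. For the remaining genes the log2 fold changes and 95% intervals were 0.10 (from −0.098 to 0.31) for Myl1, −0.073 (from −0.22 to 0.077) for Myl2, 0.069 (from −0.039 to 0.18) for Myl3 and 0.044 (from −0.060 to 0.15) for Mybpc1. Markers of other cells were compared in the same fit. The 4 tendon markers (Tnmd, Scx, Fmod, Thbs4) summed to 257 to 674 CPM in WT and 23.9 to 454 CPM in ∆Ig3-MuSK, and the 4 macrophage markers to 28.3 to 64.1 CPM and 10.4 to 45.5 CPM, each with 4 of 4 lower, 0 called and no marker at 0 counts in any library. Of 5 smooth muscle markers 1 was called lower, with sums of 192 to 227 CPM in WT and 139 to 206 CPM in ∆Ig3-MuSK, and the 4 adipocyte markers, 4 of 4 higher and 0 called, summed to 47.7 to 261 CPM and 18.3 to 231 CPM. The 5 immediate early markers, which respond to handling and activity, had 5 of 5 lower in ∆Ig3-MuSK (median on the log2 scale −0.67), with sums of 36.1 to 126 CPM and 26.6 to 92.1 CPM. The markers of regenerating or denervated fibers had 4 of 5 lower, with a median of −0.28 and sums of 275 to 430.3 CPM and 309.8 to 454 CPM. Fibroblast markers had 5 of 5 and endothelial markers 4 of 4 lower, with medians of −0.20 and −0.16, Schwann and erythroid markers 4 of 4 higher, with medians of 0.21 and 0.28, and satellite cell markers 2 of 4 lower. In these 7 lists 0 genes were called by edgeR, while an unadjusted p under 0.05 was reached by 3 immediate early, 3 regenerating or denervated fiber, 2 fibroblast, 2 endothelial and 1 Schwann marker. It was also reached by 3 smooth muscle, 2 tendon, 0 macrophage and 0 adipocyte markers, and by 18.5% of all genes tested. The part of these cells and responses in the results above was not tested.

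**Figure D4:**
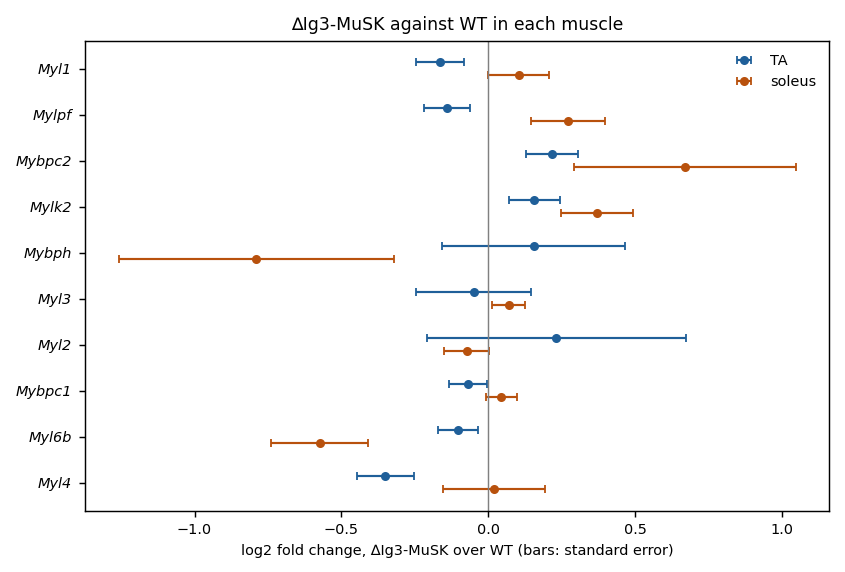
Log2 fold change of each gene between ∆Ig3-MuSK and WT in the TA and in the soleus, with bars for the standard error of the fit. Values run from −0.79 for Mybph to 0.67 for Mybpc2, both in the soleus, and none of the 20 passed the call limits.

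Whether the genotype effect differed between muscles was tested as an interaction over the 36 libraries. Of the 10 genes, 0 passed (adjusted p under 0.05), where 0% of the 20841 genes tested did, and 2 of the 10 and 24.9% of all genes reached an unadjusted p under 0.05. The smallest adjusted p values were those of Mylpf, with an interaction of 0.42 with a standard error of 0.16 (adjusted p = 0.117) on the log2 scale, and of Myl6b, with −0.45 with a standard error of 0.19 (adjusted p = 0.134). The genotype log2 fold changes of Mylpf were −0.14 in the TA and 0.27 in the soleus, and those of Myl6b −0.10 and −0.57, none of them called. The other 8 had interactions from −0.93 (Mybph) to 0.46 (Mybpc2). Without the 2 soleus libraries of each genotype with the most Myh4, Mylpf (0.57, adjusted p = 0.0292) and Mylk2 (0.46, adjusted p = 0.0439) passed, where 1.74% of all genes did (368 genes). With limma-voom 1 of the 10 passed, Mylpf (0.43, adjusted p = 0.0448), where 6.49% of all genes did (1352 genes). DESeq2 passed 0 of the 10 and 1049 of all genes, and leaving out WT TA replicate 9 moved the count over all genes to 1450 while 0 of the 10 passed.

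The spread within a muscle was set beside the heavy chains Myh4 (fast) and Myh7 (slow), using log2 CPM from which the group means had been subtracted. For each muscle, 18 libraries entered, permutations were drawn within genotype, and p values were adjusted over the 40 relations of 10 genes, 2 heavy chains and 2 muscles. Mybpc2 varied with Myh4 in both muscles. In the soleus the relation gave r = 0.87 (permutation p = 1e-05, adjusted 0.000200) and rho = 0.87 (permutation p = 1e-05, adjusted 0.000400), and Pearson's r was 0.90 in WT, 0.83 in ∆Ig3-MuSK and 0.89 without the 2 libraries farthest from the median of Myh4. In the TA it gave r = 0.92 (permutation p = 1e-05, adjusted 0.000200) and rho = 0.89 (permutation p = 2e-05, adjusted 0.000400), and Pearson's r was 0.91 in WT, 0.94 in ∆Ig3-MuSK and 0.88 without the 2 libraries farthest from the median of Myh4. The unadjusted p of 1e-05 is the smallest that 100000 permutations can give. Mylk2 and Mylpf also went with Myh4 in the soleus. For Mylk2 the values were r = 0.75 (permutation p = 0.00103, adjusted 0.0103) and rho = 0.60 (permutation p = 0.00766, adjusted 0.0432), and r was 0.77 in WT, 0.76 in ∆Ig3-MuSK and 0.70 without the 2 libraries farthest from the median of Myh4. For Mylpf they were r = 0.68 (permutation p = 0.00349, adjusted 0.0195) and rho = 0.65 (permutation p = 0.00633, adjusted 0.0422), and r was 0.80 in WT, 0.40 in ∆Ig3-MuSK and 0.72 without the 2 libraries farthest from the median of Myh4. In the soleus those 2 libraries were low in Myh4, so WT replicates 1 and 2 stayed in. These WT replicates held 297 and 261 CPM of Mylk2, against 143 to 168 CPM in the rest of WT soleus. In ∆Ig3-MuSK soleus, replicate 6 held 189.5 CPM of Mylk2 and the rest 232 to 265 CPM. The relation of Mylk2 to Myh4 without these 3 libraries was not tested.

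Myl2 went with Myh7, the slow heavy chain, in both muscles, with r = 0.71 (permutation p = 0.00160, adjusted 0.0112) and rho = 0.70 (permutation p = 0.00222, adjusted 0.0238) in the soleus and r = 0.74 (permutation p = 0.000540, adjusted 0.00720) and rho = 0.70 (permutation p = 0.00238, adjusted 0.0238) in the TA. Pearson's r for Myl2 in the soleus was 0.81 in WT, 0.59 in ∆Ig3-MuSK and 0.70 without the 2 libraries farthest from the median of Myh7, and in the TA 0.79 in WT, 0.73 in ∆Ig3-MuSK and 0.68 without the 2 libraries farthest from the median of Myh7. Against Myh7 in the soleus, Myl1 had r = −0.66 and Mylpf r = −0.69, with adjusted permutation p values of 0.0206 and 0.0112. The Spearman coefficients were −0.62 and −0.68, with adjusted permutation p values of 0.0432 and 0.0242, and r without the 2 libraries farthest from the median of Myh7 was −0.79 and −0.80. Within WT r was −0.84 for Myl1 and −0.88 for Mylpf, and within ∆Ig3-MuSK it was −0.46 and −0.45. Mybpc2 had r = −0.63 (adjusted permutation p = 0.0195) against Myh7 in the soleus, but rho = −0.52 (adjusted permutation p = 0.114). Its r was −0.86 in WT and −0.27 in ∆Ig3-MuSK. In the TA, by contrast, Mylpf and Myh4 had r = −0.45 (adjusted permutation p = 0.174), and within WT r was −0.77 while within ∆Ig3-MuSK it was 0.24. Within genotypes the relation of Myl2 to Myh4 in the soleus also differed in sign, −0.74 in WT and 0.17 in ∆Ig3-MuSK. Differences between genotypes in these relations were not tested. All the genes of a library share its depth and its scaling factor.

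**Figure D5:**
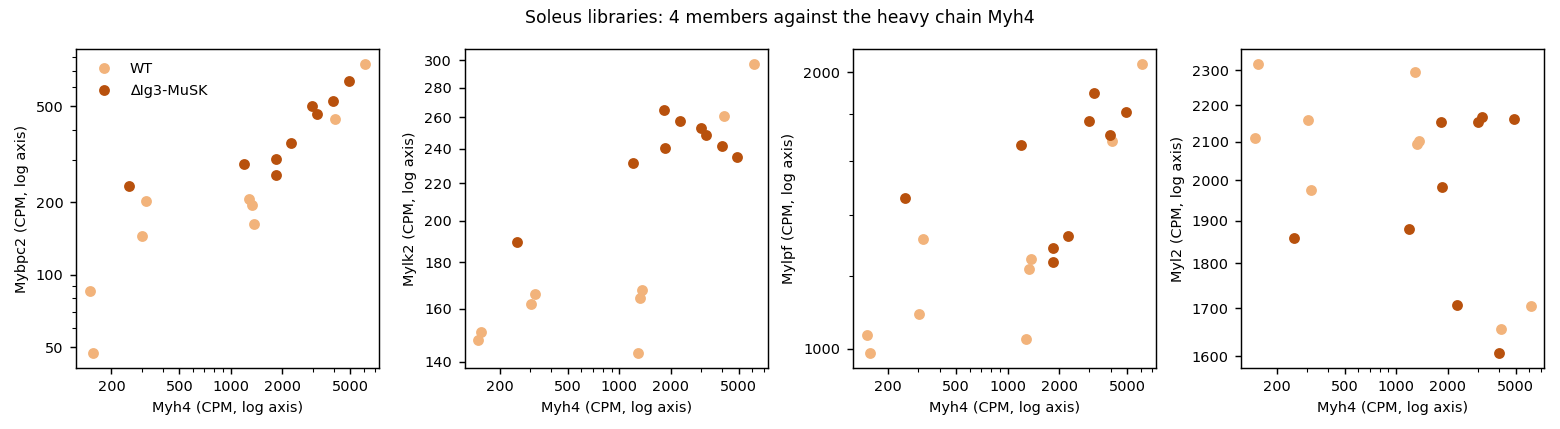
CPM of Mybpc2, Mylk2, Mylpf and Myl2 against CPM of Myh4 (both on log axes) in the 9 WT and 9 ∆Ig3-MuSK soleus libraries. Mybpc2 runs from 47.2 to 751 CPM along Myh4, and for Mylk2 the 2 WT libraries with the most Myh4 lie at 261 and 297 CPM while the other 7 lie at 143 to 168 CPM.

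The genes outside the 10 whose log2 CPM, after group means were subtracted, were most like a member's over the 18 libraries of a muscle were found by Pearson's r. In the soleus, Myl2 was most like Tnni1 (0.92), Gm37917 (0.87) and Tnnc1 (0.84), of which Tnni1 and Tnnc1 encode the slow troponins I and C. Mylpf in the soleus was most like Tnni2 (0.98), Tpm1 (0.97) and Ldha (0.96), with Tnni2 the fast troponin I and Ldha a subunit of lactate dehydrogenase. For Mybpc2 in the soleus they were Gm44646 (0.99), Pvalb (0.99) and Actn3 (0.97), where Gm44646 shares exon with Mybpc2, Pvalb is the calcium buffer parvalbumin and Actn3 the alpha-actinin of fast fibers. Mybpc1 in the soleus was most like Serbp1 (0.84), Dtna (0.83) and Spag9 (0.83). In the TA, Mybpc2 was most like Atp2a1 (0.94), Myh8 (0.93) and Hnrnpul1 (0.93), Atp2a1 being the fast calcium pump of the sarcoplasmic reticulum. The TA neighbours of Mylpf were Lamtor4 (0.94), Pfdn1 (0.94) and Tmbim4 (0.94), those of Mybpc1 included Myh13 (0.90) and Afg3l2 (0.88), and those of Myl2 were Plk4 (0.82), Gm26684 (0.82) and Ldhb (0.77). Mybph was most like Adora1 (0.99), Mir3100 (0.88) and Adam11 (0.85) in the TA and Adora1 (0.89), Plagl1 (0.77) and Slc8a2 (0.76) in the soleus, led in both by the gene with which it shares exon. Within the 10 genes, Mylpf and Myl1 had r = 0.92 in the soleus and 0.80 in the TA, and Myl2 and Myl3 0.70 and 0.78.

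Around the 10 genes, 31 others of the thick filament were listed as other light chains, other binding proteins, light chain kinases and phosphatase, M-band and scaffold proteins, and factors of assembly and turnover. Of these, 27 passed the filter on low counts, and Myl5, Myl7, Mybpc3 and Mybphl did not enter the tests. Genotype calls numbered 0 of 27 in the TA and 0 of 27 in the soleus, where 0.0149% and 0.952% of all genes were called. An unadjusted p under 0.05 was reached by 10 of 27 in the TA and 11 of 27 in the soleus, beside 24.1% and 18.5% of all genes. The smallest adjusted p in the soleus was that of Myl9, a smooth muscle regulatory chain named after its value was seen, at −0.25 (adjusted p = 0.0404), under the 1.2-fold limit. Between muscles, 12 of 27 were called higher and 10 were called lower in WT soleus. In ∆Ig3-MuSK soleus 9 were called higher and 10 were called lower, beside the shares of all genes given above. In WT the calls with the smallest adjusted p included Myom3, an M-band protein of slow and intermediate fibers, at 6.03 (adjusted p = 1.34e-27), the calmodulin gene Calm3 at −1.74 (adjusted p = 2.68e-23), the non-muscle regulatory chains Myl12a at 2.12 (adjusted p = 2.82e-21) and Myl12b at 1.15 (adjusted p = 3.15e-20), and Mylk3, the cardiac light chain kinase, at 4.09 (adjusted p = 5.45e-20). In ∆Ig3-MuSK they were Myom3 at 5.97 (adjusted p = 1.91e-27), Calm3 at −1.59 (adjusted p = 3.67e-22), Myl12a at 2.18 (adjusted p = 1.23e-21), Mylk3 at 3.76 (adjusted p = 2.23e-19), Myl12b at 1.04 (adjusted p = 5.29e-19) and Unc45b, a myosin chaperone, at −0.90 (adjusted p = 1.20e-15). Thus Mylk2 was lower and Mylk3 higher in the soleus in both genotypes. Of the other light chain kinases, named after their values were seen, Mylk4 was also called lower, at −3.71 in WT and −3.48 in ∆Ig3-MuSK. Mylk was not called in either genotype.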

How the data were processed

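RNA-seq counts per gene were used from 36 libraries of whole TA and soleus (9 per genotype and muscle). As deposited, the values are raw counts that the authors made by trimming reads with Trimmomatic, aligning them to the mouse genome (mm10, named GRCm38 in the submitters' notes) with GSNAP and counting with HTSeq; the counting mode and annotation release are not given in the sources used here. Columns were matched to samples by name, with 0 columns of other samples. Symbols and exon lengths came from GENCODE M21, which named 51633 of 51912 IDs. Genes passing filterByExpr (at least 10 counts in enough libraries, 15 in total) were tested with edgeR 4.0.16 (TMM, quasi-likelihood test, Benjamini-Hochberg adjustment over all genes tested) in R 4.3.3. Genotype was tested within each muscle, and muscle contrasts and the interaction in 1 fit over 36 libraries. A call needed adjusted p under 0.05 and at least 1.2-fold (no fold limit for the interaction). DESeq2 1.42.0, limma 3.58.1 voom with quality weights, other filters and scalings, replicate blocks and each library left out were alternatives, as were 2 chosen after seeing the data, Myh4 as a covariate and leaving out the soleus libraries highest in Myh4. The edgeR fits were checked on simulated counts drawn independently for each gene, with log2 changes larger than any genotype change of the members. That check does not cover spread that the genes of a library share, or changes as small as those of the members.

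The members, gene lists and markers were chosen with earlier results of these data known. All 10 members are named, with Musk, the fiber-type heavy chains, up to 6 called genes of the other lists per comparison by adjusted p, and the 3 genes most like each of 5 members in each muscle. Some genes that these rules select are not reported here. The study states 1 muscle per animal, but 8 label numbers per genotype recur in both muscles and may mark the same animals; this could not be settled. The fits treat libraries as independent, so the muscle contrasts and the interaction ignore any such pairing, and p-values measure only the spread between these samples. Depth was 43492062 to 78660422 counts, so for the abundant members the spread between libraries, not counting error, sets the precision.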

Additional observations from a re-analysis of the deposited data

Results flagged for a closer look

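In 6 of the 40 combinations of gene and group, 1 library lay apart from the other 8, its gap to the nearest divided by the group's range exceeding Dixon's critical value of 0.493 for 9 samples; chance gives about 1 in 20. Myl3, the slow essential chain, was highest in WT soleus replicate 8, at 3602 CPM with the nearest library at 3341 CPM. WT soleus replicate 7 was highest in Myl4, at 12.9 CPM with the nearest at 8.00 CPM, and in Mybph, at 9.76 CPM with the nearest at 3.50 CPM. In ∆Ig3-MuSK TA replicate 8, Mybph was at 36.8 CPM with the nearest at 20.8 CPM. Mylk2, the light chain kinase, was lowest in WT TA replicate 9, at 773 CPM with the nearest at 961 CPM, and in ∆Ig3-MuSK soleus replicate 6, at 189.5 CPM with the nearest at 232 CPM. That last library also held the least Myh4 of its group.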

How the results depend on the processing

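The muscle differences kept direction and call for all 10 genes under the alternatives run, except that Myl4 in WT (−0.56) missed a 2-fold limit, at which 3239 (WT) and 3216 (∆Ig3-MuSK) of all genes were called. In the TA, all-gene calls were 225 with DESeq2 (1 member), 150 with limma-voom, 10 without a filter, 692 in 1 fit over 36 libraries, and 3 to 9 with single libraries left out. In the soleus they were 486 with DESeq2, 653 with limma-voom (2 members), 312 in the 36-library fit (1 member), 1 with Myh4 as a covariate, 686 without the 4 libraries highest in Myh4 (4 members), and 22 to 602 with single libraries left out (0 to 3 members). For the interaction they were 4 with 10 counts required in every library, 1049 with DESeq2, 1352 with limma-voom (1 member), 368 without those 4 libraries (2 members), and 0 to 1450 with single libraries left out. Signs turned for uncalled log2 values. Myl3 in the TA was 0.012 with limma-voom, 0.096 with the Myh4 covariate and −0.14 to 0.071 with libraries left out. Mybph in the TA was −0.00073 with that covariate and −0.069 to 0.33 with libraries left out. Myl4 in the soleus was −0.12 without the 4 libraries and −0.039 to 0.18 with single libraries left out. The causes were not tested.

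Same-numbered libraries of the genotypes did not deviate together (median r −0.033 in the TA and 0.026 in the soleus), so the numbers were not taken as pairing. With the replicate block, genes called numbered 0 for the TA and 347 for the soleus, and 9 passed the interaction with the label numbers as a block. Label numbers shared between muscles gave median r of 0.091 in WT (3 of 8 pairs over 0.1) and 0.21 in ∆Ig3-MuSK (7 of 8, with 6 of 8 correlating best with their own number), so whether they mark the same animals is unresolved; that block changed no member's call.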
